A study of Mus musculus with 17 samples.

Results

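The genes described are 40 cell cycle and DNA replication genes, chosen by symbol as members of this programme and not by their values. All 40 were found among the 25124 genes listed in each of 3 expression tables of sorted mouse Kupffer cells (KCs). They comprised 11 genes of S phase (Mcm2 to Mcm7, Pcna, Rrm1, Rrm2, Cdc6 and Gins2), 3 further replication genes (Tyms, Cdt1 and Uhrf1) and 21 genes of mitosis (Mki67, Top2a, Cdk1, Ccna2, Ccnb1, Ccnb2, Aurka, Aurkb, Plk1, Bub1, Bub1b, Birc5, Cenpe, Cenpf, Kif11, Kif20a, Kif23, Nusap1, Tpx2, Ube2c and Cdc20). The other members were the 2 cyclin E genes (Ccne1 and Ccne2) and 3 transcription factors (Foxm1, E2f1 and Myc). All 40 passed the filter on low values in both tumour comparisons, and 39 passed it in the Id3 comparison, where Foxm1 was below it.

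RNA-seq was performed on 17 samples of KCs, the resident macrophages of the liver, sorted as F4/80+ Tim4+ leukocytes without lymphocyte, natural killer cell or Ly6G markers. Tim4+CD206+ KCs, the main subset, and Tim4+CD206hi KCs, a minor subset, were each sorted as 3 samples from untreated tumour-free livers and 3 samples from livers that had been seeded 2 weeks earlier by intraportal injection of KPC cells, a mouse pancreatic adenocarcinoma line. In a separate experiment, KCs were sorted from untreated livers of 3 Id3f/f samples, which carry a floxed Id3 gene, and 2 Clec4fCreId3f/f samples, in which Cre expressed from the KC gene Clec4f deletes Id3. Clec4f is switched on after birth, so the deletion is postnatal and the cells develop with Id3 before it. The study describes the Id3 samples as mice and their littermates and its replicates in general as biological. The labels do not say whether the tumour and tumour-free samples came from separate animals, and p values there measure the spread between these samples, which may be technical. Values are on a log2 scale, on which 1 unit is a doubling, with a shrinkage that understates the differences of genes with few reads. Each of the 3 tables was normalized on its own, and the read depth of the samples is unknown from the tables.

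A dividing cell prepares its replication origins in G1, when CDC6 and CDT1 load the MCM2 to MCM7 helicase, and fires them in S phase, when GINS activates the helicase, PCNA clamps the polymerases and ribonucleotide reductase supplies deoxynucleotides. Genes of this group are switched on by E2F factors once RB proteins release them. Genes of mitosis follow later, through FOXM1 and the MuvB complex, which also keeps them silent in resting cells. KCs are long-lived macrophages that renew themselves in the liver by local division, which is slow at rest and speeds up after KC loss.

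The promoters of the S-phase and mitotic genes were searched for 3 motifs, and the difference between the groups was not tested. RefSeq windows of 300 bases, from 250 before to 50 after the transcription start on GRCm38.p6, were matched by symbol for 31 of the 40 genes; Mcm4, Gins2, Ccna2, Aurkb, Kif20a, Tpx2, Ccne2, Foxm1 and Myc were not matched. TTTGAA, the core of the cell cycle homology region (CHR) to which MuvB binds, was found on either strand in 12 of 17 mitotic genes (70.6%), in 1 of 9 S-phase genes (11.1%) and in 20.2% of all 27025 genes with a window. The E2F letters TTTCGCGC, TTTGGCGC or TTTCCCGC were found on either strand in 5 of 9 S-phase genes (55.6%), in 1 of 17 mitotic genes (5.88%) and in 2.12% of all genes. CCAAT, the letters of the NF-Y box, was found in 88.9% of these S-phase genes, in 88.2% of these mitotic genes and in 41.1% of all genes. A match is a description of the letters only.

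**Figure D1:**
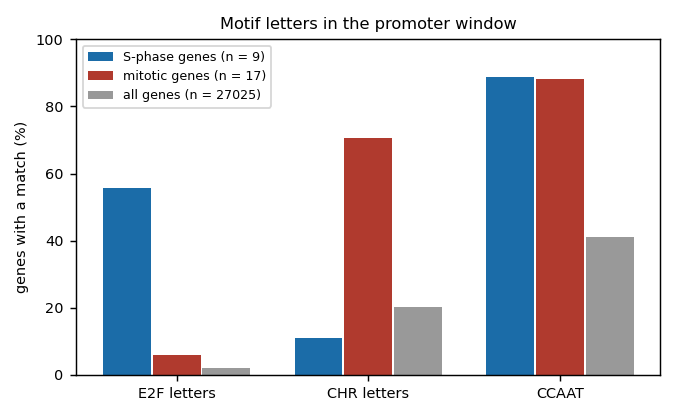
Share of genes (%, y axis) whose RefSeq promoter window of 300 bases holds the E2F letters, the CHR letters or CCAAT on either strand (x axis), for 9 S-phase genes, 17 mitotic genes and all 27025 genes. CHR letters were found in 70.6% of the mitotic genes and E2F letters in 55.6% of the S-phase genes.

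Windows of 4 genes on which the results below turn are shown 5′ to 3′ on the strand of the gene, with the matched letters in capitals: Mki67, the gene called in Tim4+CD206+ KCs, and Cdc20 for the mitotic group, and Mcm6 and Mcm7 for S phase. Their positions on the minus strand are chr7:135716330-135716629, chr4:118437294-118437593, chr1:128359656-128359955 and chr5:138171834-138172133, in this order. Mki67 and Cdc20 show the CHR letters beside CCAAT, and Mcm6 and Mcm7 show E2F letters beside CCAAT or its reverse complement ATTGG. A second Mcm7 window, at chr5:138171217-138171516 on the minus strand, holds CCAAT letters once and no E2F letters, and a gene with 2 windows was counted where either held the motif. In Mcm6 the first capitals hold E2F letters on both strands that overlap, and in Mcm7 the last E2F letters overlap CCAAT.
Mki67: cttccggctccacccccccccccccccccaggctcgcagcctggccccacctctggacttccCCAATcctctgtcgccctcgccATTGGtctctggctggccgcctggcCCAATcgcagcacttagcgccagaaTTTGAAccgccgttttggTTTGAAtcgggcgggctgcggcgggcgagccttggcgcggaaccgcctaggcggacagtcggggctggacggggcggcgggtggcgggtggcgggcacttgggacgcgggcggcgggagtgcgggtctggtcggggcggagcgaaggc
Cdc20: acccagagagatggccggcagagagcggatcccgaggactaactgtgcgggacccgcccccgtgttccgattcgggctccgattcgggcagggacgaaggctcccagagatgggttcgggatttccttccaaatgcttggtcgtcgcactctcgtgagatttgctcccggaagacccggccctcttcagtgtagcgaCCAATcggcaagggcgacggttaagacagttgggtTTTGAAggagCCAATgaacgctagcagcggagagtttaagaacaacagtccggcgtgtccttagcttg
Mcm6: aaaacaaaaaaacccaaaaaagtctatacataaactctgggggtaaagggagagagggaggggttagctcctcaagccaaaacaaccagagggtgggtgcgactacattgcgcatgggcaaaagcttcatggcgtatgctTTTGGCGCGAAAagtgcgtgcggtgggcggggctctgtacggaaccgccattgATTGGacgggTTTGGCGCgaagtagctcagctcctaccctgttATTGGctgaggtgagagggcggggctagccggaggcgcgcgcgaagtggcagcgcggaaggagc
Mcm7: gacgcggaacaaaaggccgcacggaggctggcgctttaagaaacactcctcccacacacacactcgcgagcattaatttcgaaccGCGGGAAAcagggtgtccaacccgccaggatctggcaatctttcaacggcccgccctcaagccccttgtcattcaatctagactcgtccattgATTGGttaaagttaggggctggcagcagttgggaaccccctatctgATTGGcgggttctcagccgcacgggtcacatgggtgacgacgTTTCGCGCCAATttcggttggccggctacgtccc

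The labels were checked against genes of known expression. Clec4f, which marks KCs, was at 18.47 or above in the 6 Tim4+CD206+ samples, at 17.60 or above in the 6 Tim4+CD206hi samples and at 17.59, 17.62 and 17.71 in the Id3f/f and 16.13 and 16.11 in the Clec4fCreId3f/f samples. Id3 was 12.59, 12.46 and 12.82 in the Id3f/f samples and 9.83 and 9.82 in the Clec4fCreId3f/f samples, a log2 fold change of -2.80 (adjusted p = 1.4e-06, limma). Epithelial markers were not absent from KCs of tumour-bearing livers, and their values stand beside the results below.

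Tumour-free samples differed among themselves before any comparison with tumour. Tumour-free replicate 2 was more than 1 log2 unit above the mean of replicates 1 and 3 for Mcm6, Rrm2, Cdt1, Ccna2, Ccnb2, Cdc20, Ccne1 and Foxm1, and it was so in both subsets. These were 8 of the 40 genes (20%), against 976 of the 13110 genes tested in both subsets (7.44%). The labels do not say whether same-numbered samples of both subsets came from the same livers. A likeness between the subsets is therefore not an independent repeat. Mcm6, a helicase subunit, was 9.30, 11.56 and 9.67 in tumour-free Tim4+CD206+ replicates 1 to 3 and 10.83, 11.83 and 9.88 in the Tim4+CD206hi ones. Cdc20, which activates the anaphase-promoting complex, was 7.78, 10.32 and 9.78 in the former and 8.85, 10.35 and 7.97 in the latter. Ccna2, cyclin A2, was 7.26, 9.35 and 7.30, and 8.90, 10.24 and 9.13. In each of these 3 genes replicate 2 was the highest tumour-free sample of both subsets, while Mcm2 to Mcm5, Mcm7 and Pcna did not show it to that extent.

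**Figure D2:**
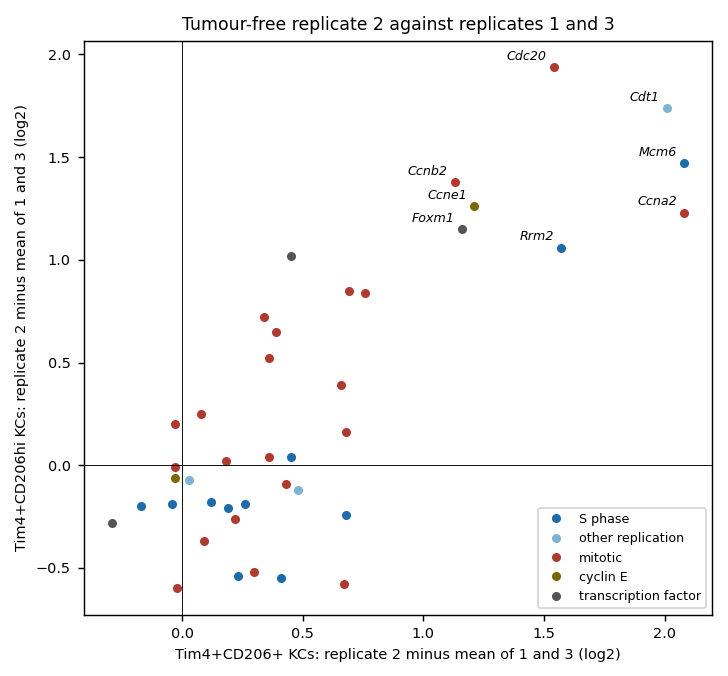
Value of tumour-free replicate 2 minus the mean of tumour-free replicates 1 and 3 (log2), in Tim4+CD206+ KCs (x axis) and Tim4+CD206hi KCs (y axis); each point is 1 of the 40 genes, coloured by group. The 8 named genes lie above 1 on both axes.

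The other tumour-free samples were uneven too. Replicate 1 of the Tim4+CD206+ KCs was below the mean of the other 2 for 39 of the 40 genes, with a median difference of -0.55, and replicate 1 of the Tim4+CD206hi KCs for 37 of 40, with a median of -0.47. Tumour-free Tim4+CD206hi replicate 3 was over 1 unit higher than the other 2 for Mki67, Top2a, Cenpe and Nusap1 and over 1 unit lower for Mcm6, Cdt1, Cdc20 and Myc. These were 4 genes in each direction, where 2.84% of all genes were over 1 unit higher and 15.5% over 1 unit lower in that sample. The summed markers of KCs, T or NK cells, B or plasma cells, endothelial cells and stellate cells were all lowest in replicate 2 among the tumour-free samples of both subsets, whereas those of dendritic cells were highest there in both. In Tim4+CD206hi KCs the epithelial, neutrophil precursor, monocyte, erythroblast and hepatocyte sums were also highest in replicate 2, and in Tim4+CD206+ KCs the epithelial, neutrophil, neutrophil precursor and monocyte sums were lowest in it. For KC markers the sums were 4003025, 2711566 and 3202656 in Tim4+CD206+ KCs and 1543436, 1407111 and 1901872 in Tim4+CD206hi KCs, on the linear scale. The summed endothelial markers were lower in replicate 2 than in replicates 1 and 3 of both subsets, at 16116 against 26650 and 23263 in Tim4+CD206+ KCs and at 148941 against 233948 and 218116 in Tim4+CD206hi KCs. Their part in these differences was not tested.

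The level per length differed widely between the genes. Values turned to the linear scale and divided by exon length put Mcm5, Pcna and Mcm3 first in tumour-free Tim4+CD206+ KCs, at 1231 ± 219, 1043 ± 202 and 875 ± 45.4 per kb (SD, n = 3), and the spread of Mcm5 and Pcna overlapped. Mki67, Cenpe and Cenpf, which code for very long mitotic proteins, were last, at 6.5 ± 2.0, 4.9 ± 1.5 and 3.1 ± 1.0 per kb. In tumour-free Tim4+CD206hi KCs Pcna was again high, at 1872 ± 666 per kb, and Mki67 was at 114 ± 61.2 per kb. In Id3f/f KCs Pcna was at 1071 ± 50.3 per kb, while Mki67 was at 10.4 ± 1.8 and Bub1 at 3.3 ± 0.1. Levels of different tables were normalized separately, and the difference between the subsets was not tested.

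With tumour, Tim4+CD206+ KCs showed a rise of 1 of the 40 genes, Mki67, and no fall. Mki67, which codes for the coat protein of mitotic chromosomes used as the Ki-67 proliferation marker, lies at chr7:135689784-135716361 on the minus strand of GRCm38. It was 5.57, 6.44 and 5.96 in tumour-free replicates 1 to 3 and 7.12, 7.51 and 7.29 in tumour replicates 1 to 3. Every tumour sample was above every tumour-free sample. The log2 fold change was 1.32 ± 0.29 (SE, n = 3 per group, adjusted p = 0.0462 in limma with Benjamini-Hochberg adjustment over 13233 genes). Across these genes 2.55% rose and 0.998% fell, so that 1 of 40 is close to the background. In bulk samples a change in the number of cells that express a gene and a change in its RNA per cell cannot be told apart. The call did not hold without tumour-free replicate 1 or 3 or without any 1 tumour replicate, at log2 fold changes between 1.11 and 1.54 over all alternatives and adjusted p values between 0.00938 and 0.159.

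The mitotic genes had a higher mean in tumour than in tumour-free Tim4+CD206+ KCs in 16 of 21 cases, where 52.1% of all genes did, with a median log2 fold change of 0.38, against 0.02 over all genes tested. Without tumour-free replicate 1, the sample in which nearly all of these genes were low, that median was 0.02. Groups did not overlap for 3 of the 40 genes in the upward direction, against 12.9% of all genes, and all 3 were mitotic. Besides Mki67 they were Nusap1, a protein that bundles spindle microtubules, and Birc5, the survivin subunit of the chromosomal passenger complex. Nusap1 was 6.87, 7.31 and 7.01 tumour-free and 7.86, 7.70 and 8.06 with tumour (log2 fold change 0.81 ± 0.24, adjusted p = 0.128). Birc5 was 9.48, 10.63 and 10.46 tumour-free and 10.66, 10.84 and 11.10 with tumour (0.68 ± 0.30, adjusted p = 0.302). Neither passed the threshold, and in Birc5 the gap between the groups was narrow.

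Top2a, Cdc20 and Ccna2 had wider spreads among the tumour-free samples than Mki67, Nusap1 and Birc5, while Kif11, Kif23 and Bub1 had narrower ones. Top2a, the topoisomerase that untangles sister chromatids, was 6.88, 7.87 and 8.70 tumour-free and 8.73, 7.96 and 9.24 with tumour, with a 95% interval of its log2 fold change from -0.30 to 1.95. Cdc20 had an interval from -1.09 to 1.86 and Ccna2 from -0.995 to 1.51, so that a rise of 1 unit lies within both. The intervals of Ccnb1, Ccnb2, Aurka, Plk1, Bub1, Cenpe, Cenpf, Kif11, Tpx2 and Ube2c all held 0, at log2 fold changes between 0.17 and 0.57. Cdk1, the kinase that drives entry into mitosis, differed by -0.02 between the groups, with an interval from -0.49 to 0.45. The 5 mitotic genes with a lower mean in tumour were Cdk1, Aurkb, Bub1b, Kif20a and Kif23, at -0.35 for Aurkb and between -0.27 and -0.02 for the other 4.

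These intervals come from the fit without pairing. Same-numbered Tim4+CD206+ samples deviated together (correlations 0.35, 0.56 and 0.15), and they were paired on that ground alone. The labels name no shared source, so the pairing rests on the data that the block is then fitted to. In pairs 1 to 3 the mean of the mitotic genes was 0.64, 0.05 and 0.41 higher with tumour. All 3 pairs were higher for 8 of the 21 mitotic genes and lower for 0. Of all 13233 genes tested, 3133 (23.7%) were higher and 2549 were lower in all 3 pairs. The 11 S-phase genes had 1 gene higher and 3 lower in all 3 pairs, and their mean differed by 0.03, -0.46 and 0.19. Mki67 was higher by 1.55, 1.07 and 1.33 (adjusted p = 0.00938 with the pair as a block in limma). Tpx2, an activator of Aurora A, was higher by 0.90, 0.13 and 0.59, Aurka by 0.33, 0.37 and 0.17, and Cenpf by 0.78, 0.28 and 0.47, with adjusted p values of 0.197, 0.399 and 0.237 in that fit. Apart from Mki67, the lowest adjusted p values with the block were those of Birc5 (0.0721) and Nusap1 (0.0885), and no other of the 40 genes passed.

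**Figure D3:**
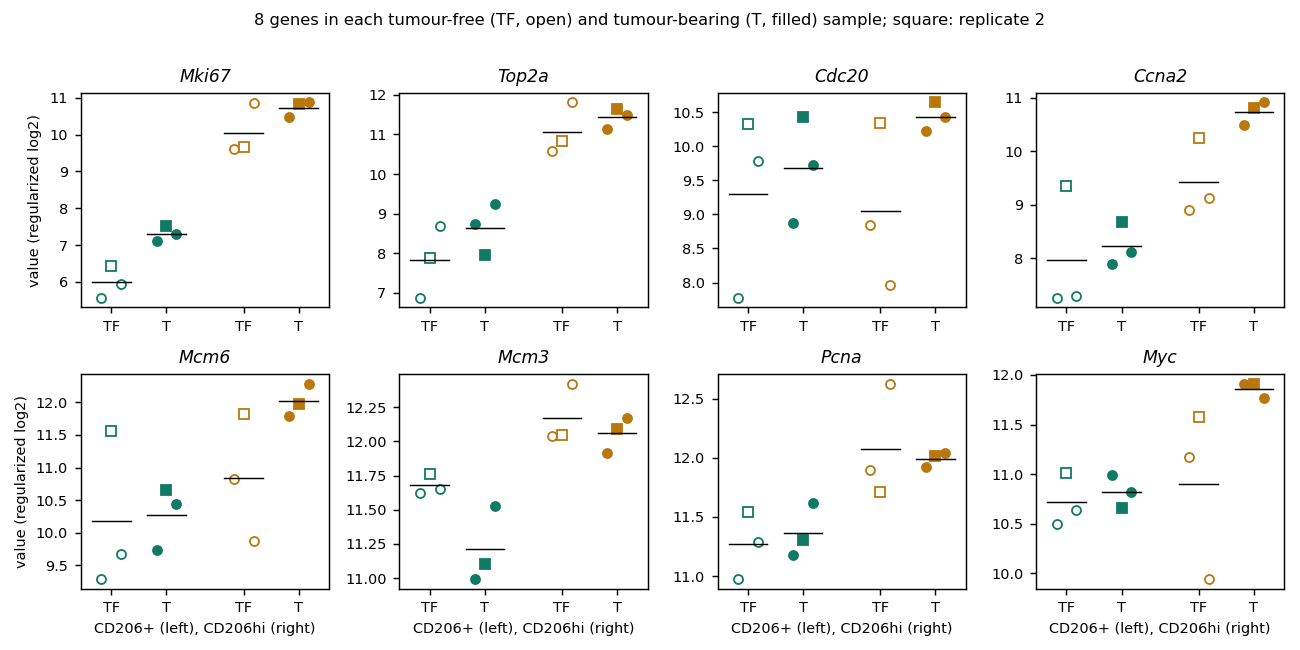
Values (regularized log2, y axis) of 8 genes in each Tim4+CD206+ (green, left) and Tim4+CD206hi (orange, right) sample, tumour-free open and tumour-bearing filled, with replicate 2 as squares and group means as lines. Mki67 was separate in Tim4+CD206+ KCs, and replicate 2 was the highest tumour-free sample for Mcm6, Cdc20 and Ccna2 in both subsets.

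The S-phase genes had means on either side in Tim4+CD206+ KCs, and their difference from the mitotic genes was not tested. A higher mean with tumour was seen for 4 of the 11 genes and a lower one for 7, with a median log2 fold change of -0.11, and that median was 0.04 without tumour replicate 1 and -0.33 without tumour replicate 3. Mcm3, a helicase subunit, was 11.62, 11.76 and 11.66 tumour-free and 10.995, 11.11 and 11.53 with tumour. All 3 tumour samples were below all 3 tumour-free ones, which 10.5% of all genes showed, and the log2 fold change of -0.47 ± 0.18 had an adjusted p of 0.239. Pcna was 10.98, 11.54 and 11.29 tumour-free and 11.18, 11.30 and 11.62 with tumour, and the groups overlapped. Rrm1 and Rrm2, the subunits of ribonucleotide reductase, differed by -0.38 (interval -0.93 to 0.17) and 0.36 (interval -0.79 to 1.52). Mcm2, Mcm4, Mcm5 and Mcm7 differed by -0.06 to -0.25 and Mcm6 by 0.10, while Cdc6 differed by -0.11 and Gins2 by 0.25.

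Of the remaining Tim4+CD206+ values, Tyms, thymidylate synthase, and Cdt1 had a higher mean with tumour, at 0.22 and 0.04. Uhrf1, which recognises newly replicated DNA for methylation, had a lower mean, at -0.11. Ccne2 was 0.65 higher (interval 0.01 to 1.28, adjusted p = 0.28) and Ccne1 0.23 lower in log2 mean, and both are low genes, at means of at most 5.66. Foxm1 differed by -0.24, E2f1 by -0.29 and Myc by 0.11, with adjusted p values between 0.508 and 0.873. At an unadjusted p under 0.05, 3 of the 40 genes were higher and 1 was lower in the fit without pairing, against 9.33% and 7.84% of all genes. With the pair as a block, 7 were higher (Mki67, Top2a, Ccnb2, Birc5, Nusap1, Tpx2 and Ccne2) and 1 lower (Mcm3), against 12.2% and 10% of all genes.

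In Tim4+CD206hi KCs, 0 of the 40 genes passed the threshold with tumour in limma, against 5.21% of the 14561 genes tested that rose and 2.03% that fell. The means still leaned one way: 36 of the 40 genes and all 21 mitotic ones had a higher mean with tumour, against 52.3% of all genes. Once samples were centred on their medians, the mitotic genes Cdk1 and Bub1b and the replication genes Rrm1, Cdc6 and Tyms were lower. Without tumour-free replicate 1, 8 of the 36 genes had a lower mean instead. They were the mitotic genes Cdk1, Bub1b, Birc5 and Kif20a and the replication genes Mcm5, Rrm1, Cdc6 and Tyms. The median log2 fold change was 0.49 for the mitotic genes, 0.20 for the S-phase genes and 0.03 for all genes tested. That of the S-phase genes was 0.04 without tumour-free replicate 1, 0.13 without replicate 2 and 0.36 without replicate 3, and 0.31 and 0.11 without tumour replicates 1 and 3. The mean of the mitotic genes was 9.41 in tumour-free replicate 1, against 10.09 and 10.13 in replicates 2 and 3. Their median log2 fold change was therefore smaller without replicate 1. The sample medians of all genes were themselves 0.16 higher with tumour, and centring on them left 0.33 for the mitotic and 0.04 for the S-phase genes. At an unadjusted p under 0.05, 14 of the 40 genes were higher and 0 lower, against 12.5% and 8.57% of all genes. Groups did not overlap for 8 genes in the upward direction and 1 in the downward direction, where 15.6% and 15.2% of all genes showed this.

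**Figure D4:**
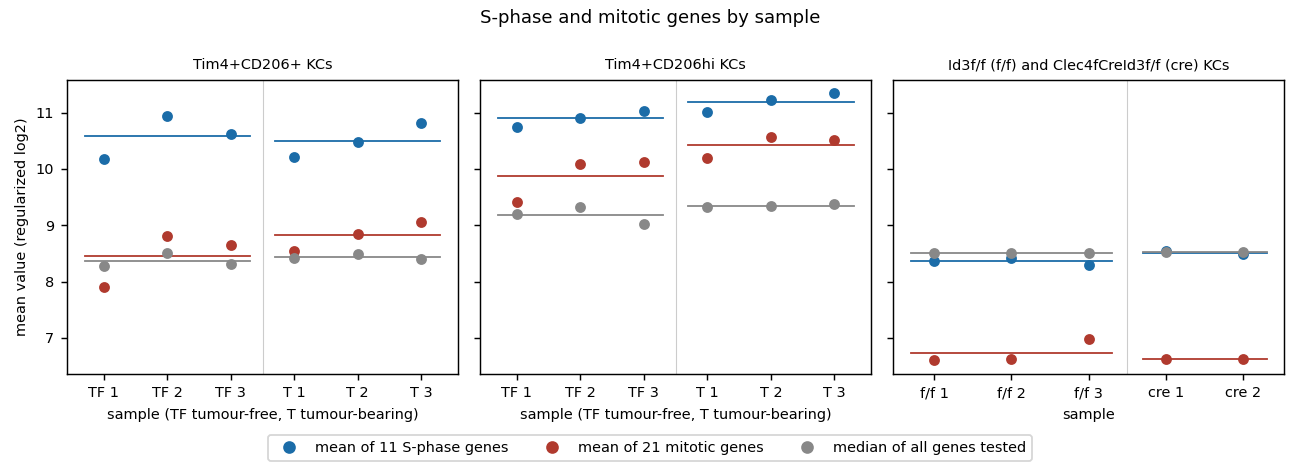
Mean value (regularized log2, y axis) of the 11 S-phase genes (blue) and of the 21 mitotic genes (red), and the median of all genes tested (grey), in each sample (x axis) of the 3 tables, with group means as lines. In Tim4+CD206hi KCs the mean of the mitotic genes was 9.41, 10.09 and 10.13 tumour-free and 10.19, 10.57 and 10.52 with tumour; levels are not comparable between panels.

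The 8 genes with separate groups belonged to all parts of the cycle. Ccna2 was 8.90, 10.24 and 9.13 tumour-free and 10.49, 10.82 and 10.91 with tumour (log2 fold change 1.32 ± 0.36, adjusted p = 0.0789). Kif11, the motor that pushes spindle poles apart, was 9.30, 9.59 and 9.48 tumour-free and 9.99, 10.30 and 10.07 with tumour (0.66 ± 0.18, adjusted p = 0.0795). Ube2c, the ubiquitin-conjugating enzyme of the anaphase-promoting complex, was 9.47, 10.34 and 9.52 tumour-free and 10.42, 10.87 and 10.76 with tumour (0.91 ± 0.28, adjusted p = 0.111). For Ccna2 and Ube2c the highest tumour-free sample was replicate 2, which came close to the tumour samples. Replicate 2 was also the highest tumour-free sample for Kif11, but there the 3 tumour-free samples lay within 0.3 units.

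Of the transcription factors, Foxm1 and Myc were higher in every tumour sample and E2f1 was lower in every tumour sample of Tim4+CD206hi KCs. Foxm1 was 6.81, 8.35 and 7.59 tumour-free and 8.75, 8.89 and 9.09 with tumour (1.33 ± 0.38, adjusted p = 0.0962). Myc, which drives growth and entry into the cycle, was 11.17, 11.58 and 9.95 tumour-free and 11.90, 11.91 and 11.76 with tumour (0.96 ± 0.39, adjusted p = 0.223). E2f1 was 10.08, 10.05 and 10.57 tumour-free and 9.96, 9.83 and 9.88 with tumour (-0.35 ± 0.20, adjusted p = 0.359). The exons of Foxm1 overlap those of Tex52 and Gm44596 on the same strand over 241 bases, and its reads may be shared. Ccne1, cyclin E1, was 5.38, 6.82 and 5.75 tumour-free and 7.12, 7.20 and 7.56 with tumour (1.31 ± 0.38, adjusted p = 0.1), while Ccne2 differed by -0.02.

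Among the replication genes of Tim4+CD206hi KCs, Mcm4 and Uhrf1 had separate groups and Mcm6, Rrm2 and Cdt1 had larger but more scattered differences. Mcm4 was 11.06, 10.92 and 11.19 tumour-free and 11.20, 11.37 and 11.47 with tumour (0.29 ± 0.16, adjusted p = 0.342). Uhrf1 was 9.95, 10.07 and 10.42 tumour-free and 10.46, 10.75 and 10.96 with tumour (0.58 ± 0.21, adjusted p = 0.175). In both genes the highest tumour-free sample lay just under the lowest tumour sample. Mcm6 was 11.80, 11.97 and 12.29 with tumour, above tumour-free replicates 1 and 3 (1.17 ± 0.46, adjusted p = 0.202). Tumour-free replicate 2, at 11.83, lay above the lowest tumour sample, so the groups overlapped. Cdt1 and Rrm2 differed by 1.19 and 0.76, and Mcm3 and Pcna were the 2 S-phase genes with a lower mean, at -0.11 and -0.08. Mcm2 differed by 0.53, and Mcm5, Mcm7, Rrm1, Cdc6, Gins2 and Tyms by 0.03 to 0.23. Of the other mitotic genes, Cdc20 differed by 1.38, Ccnb2 by 0.82, Plk1 by 0.77 and Ccnb1 by 0.66, and Top2a, Cdk1, Aurka, Aurkb, Bub1, Bub1b, Birc5, Cenpe, Cenpf, Kif20a, Kif23, Nusap1 and Tpx2 by 0.07 to 0.50.

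The calls in Tim4+CD206hi KCs depended on tumour-free replicate 2. Without it, 13 of the 40 genes rose and 0 fell, while 17.6% of all genes rose and 7.38% fell. They were Mcm6, Rrm2, Cdt1, Ccna2, Ccnb2, Aurkb, Plk1, Kif11, Ube2c, Cdc20, Ccne1, Foxm1 and Myc, with log2 fold changes between 0.71 and 2.03. They included all 8 genes that stood out in replicate 2 of both subsets, and for these genes replicate 2 was the tumour-free sample nearest to the tumour ones. Without tumour-free replicate 3 instead, Mki67 was the 1 gene that passed, at 1.10, while 5.78% of all genes rose and 2.99% fell. Mki67 was 9.60, 9.65 and 10.86 tumour-free and 10.48, 10.82 and 10.87 with tumour, and with all samples its log2 fold change was 0.69 ± 0.35 (adjusted p = 0.31).

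**Figure D5:**
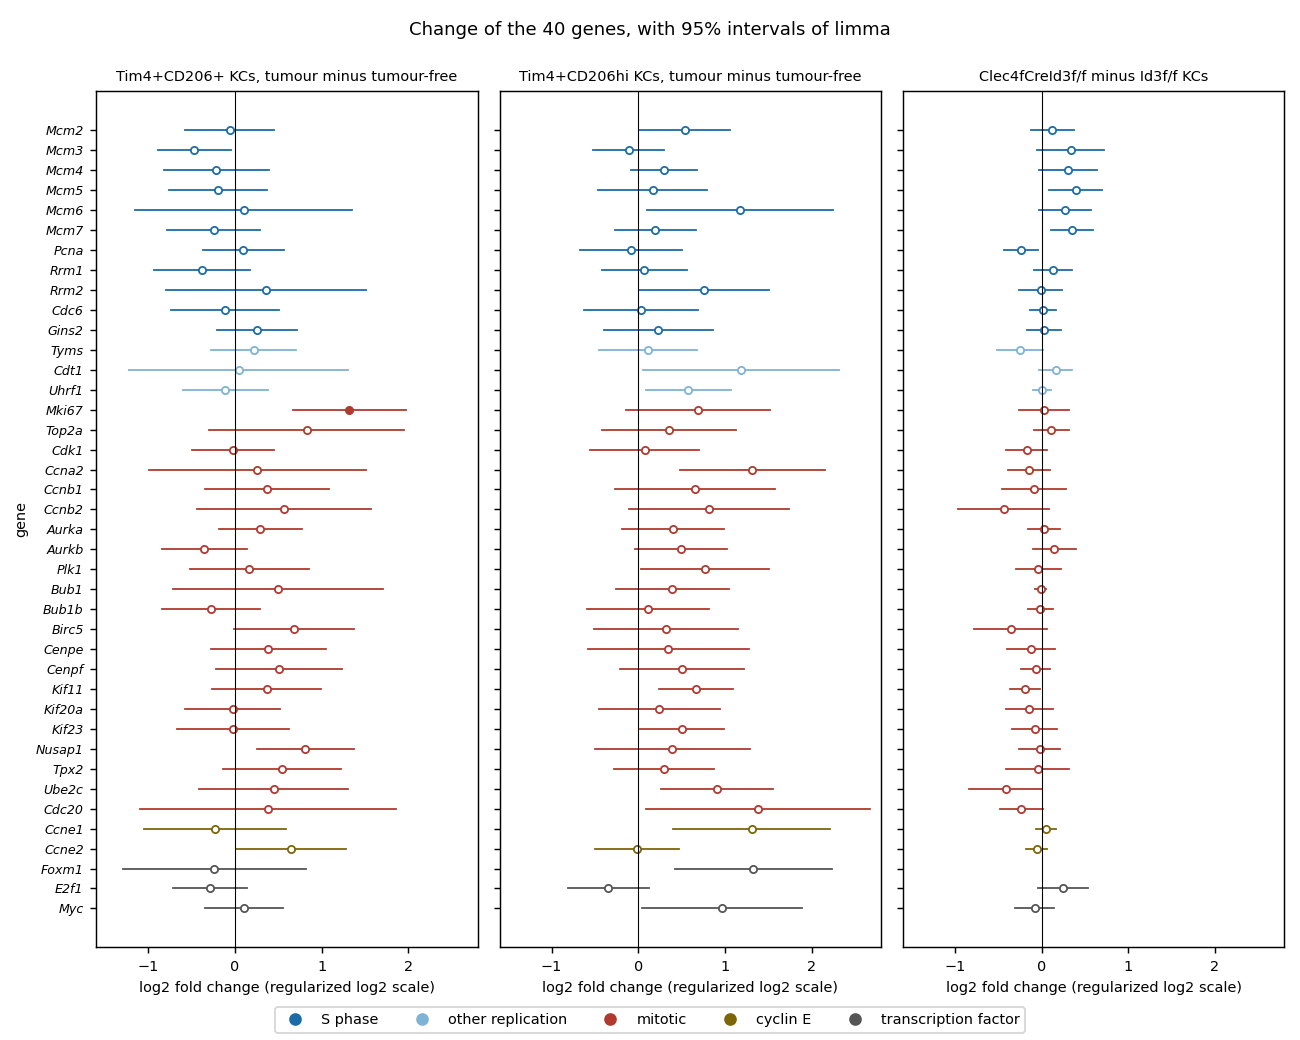
Log2 fold change (x axis, regularized log2 scale) of each of the 40 genes (y axis) with its 95% interval from limma, unadjusted for the number of genes, for tumour in Tim4+CD206+ KCs, tumour in Tim4+CD206hi KCs and Id3 deletion; filled points have an adjusted p under 0.05. The 1 filled point is Mki67 in Tim4+CD206+ KCs, and Foxm1 was not tested in the Id3 comparison.

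Set side by side, 22 of the 40 genes had a higher mean with tumour in both subsets, 2 (Mcm3 and E2f1) had a lower mean in both, and 16 had opposite signs. Of the 13110 genes tested in both subsets, 32.9% were higher in both and 28.7% lower in both. Mki67 differed by 1.32 in Tim4+CD206+ and 0.69 in Tim4+CD206hi KCs, whereas Ccna2 differed by 0.26 and 1.32, Foxm1 by -0.24 and 1.33, and Myc by 0.11 and 0.96. The difference between the subsets was not tested, because the tables were normalized separately. Samples of both subsets may also share livers, which the labels do not tell.

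Genes of the same pathways that are not among the 40 were counted on lists. Of 44 further mitotic genes, 2 rose in Tim4+CD206+ KCs and 0 fell, where 2.55% of all genes rose, with a median of 0.27. At an unadjusted p under 0.05, 8 of them were higher and 1 was lower, where 9.33% and 7.84% of all genes were. Ect2, which places the cleavage furrow in cytokinesis, was 4.71, 5.38 and 4.91 tumour-free and 6.36, 6.47 and 7.39 with tumour (1.74 ± 0.33, adjusted p = 0.0265). Arhgap11a, a GTPase-activating protein, was 7.37, 7.59 and 7.51 tumour-free and 8.51, 8.37 and 8.51 with tumour (0.97 ± 0.21, adjusted p = 0.049). For both, every tumour sample was above every tumour-free one, and neither call held without tumour-free replicate 1 or 3 or without any 1 tumour replicate (adjusted p values between 0.0508 and 0.174). In Tim4+CD206hi KCs 0 of the 44 passed, with 7 higher and 1 lower at an unadjusted p under 0.05, where 12.5% and 8.57% of all genes were, and the median was 0.35. The mean of these 44 genes was 7.26, 7.95 and 7.85 tumour-free and 7.98 with tumour in Tim4+CD206+ KCs. It was 8.94, 9.49 and 9.60 tumour-free and 9.71 with tumour in Tim4+CD206hi KCs. In both subsets the mean difference was therefore smaller without tumour-free replicate 1. Of 25 further replication genes 0 passed in either subset, with medians of 0.05 and 0.10, and at an unadjusted p under 0.05 1 was lower in Tim4+CD206+ KCs and 2 were higher in Tim4+CD206hi KCs.

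On the lists of G1 control, CDK inhibitors, the RB and E2F family, p53 targets and macrophage growth control, 5 genes passed in Tim4+CD206hi KCs, 4 upward and 1 downward, where 5.21% of all genes rose and 2.03% fell. The lists as such were not tested. Cdkn2a, the locus of the CDK inhibitor p16 and of ARF, which the value of the gene does not tell apart, was 3.73, 3.90 and 3.47 tumour-free and 5.11, 4.99 and 5.12 with tumour (1.38 ± 0.18, adjusted p = 0.00437), and this gene with low values was the 1 of 7 CDK inhibitor genes that rose. Mycn, a paralogue of Myc, was 6.31, 5.88 and 5.09 tumour-free and 8.44, 8.52 and 7.98 with tumour (2.56 ± 0.35, adjusted p = 0.00474). Mxd1, which competes with MYC for its partner MAX, was 9.48, 10.33 and 9.14 tumour-free and 11.55, 11.23 and 10.99 with tumour (1.61 ± 0.32, adjusted p = 0.027). For each of these genes, every tumour sample was above every tumour-free one. Mycn and Mxd1 were the 2 that rose among 11 genes of macrophage growth control, and 0 of that list fell. E2f2, an activating E2F factor, rose (1.25 ± 0.27, adjusted p = 0.0355) as 1 of 17 genes of the RB, E2F and MuvB-MYB list. Plk2, a p53 target, fell by 1.26 ± 0.25 (adjusted p = 0.025) as 1 of 11 p53 targets. Of 7 G1 cyclins and their kinases 0 passed, and 1 was higher at an unadjusted p under 0.05. The calls of Cdkn2a and Mycn held in every alternative that tested them. Those of Mxd1, E2f2 and Plk2 did not hold without tumour-free replicate 1 or without any 1 tumour replicate (adjusted p values between 0.0694 and 0.176), nor that of E2f2 without tumour-free replicate 3 (0.0637).

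In Tim4+CD206+ KCs the lists of 7 CDK inhibitors, 7 G1 cyclins and kinases, 17 RB, E2F and MuvB-MYB genes and 11 p53 targets held 0 genes past the threshold in limma. At an unadjusted p under 0.05 they held 2, 1, 0 and 4, all higher except 1 of the p53 targets, where 9.33% of all genes were higher and 7.84% lower. Of 10 tested genes of macrophage growth control, Csf1r, the receptor of the growth factor that sustains macrophages, fell by 0.94 ± 0.19 (adjusted p = 0.0344), from 18.60, 18.10 and 18.21 tumour-free to 17.39, 17.35 and 17.35 with tumour. This call too did not hold without tumour-free replicate 1 or 3 or without any 1 tumour replicate (adjusted p values between 0.0774 and 0.17).

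Genes of other cell types moved with tumour as well. Of 15 epithelial markers tested, 13 rose in Tim4+CD206+ and 14 in Tim4+CD206hi KCs, and none of the 16 on the list was at 0 in either table, although Cldn4 was below the filter. Their summed linear level was 2788, 2380 and 4161 tumour-free and 51352, 46028 and 43769 with tumour in Tim4+CD206+ KCs. In Tim4+CD206hi KCs it was 3542, 4501 and 2854 tumour-free and 64363, 67339 and 61399 with tumour. Krt8, a keratin and the most abundant of them, was 9.92, 9.20 and 10.37 against 13.75, 13.76 and 13.53 in the former subset (adjusted p = 0.000273) and rose by 4.83 in the latter (adjusted p = 0.0002). Pancreatic tumour cells divide, and the part of their RNA in the values of the 40 genes was not tested.

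Neutrophil markers rose for 5 of 10 genes in each subset and monocyte markers for 3 of 8 in each, and 0 fell. The summed neutrophil level was 10456, 8492 and 17347 tumour-free and 35876, 33035 and 32866 with tumour in Tim4+CD206+ KCs, and 5996, 6594 and 13789 against 26747, 23396 and 17104 in Tim4+CD206hi KCs. The summed monocyte level was 36509, 13611 and 25883 against 48411, 41595 and 45835, and 23801, 32393 and 23329 against 44100, 40391 and 46058. Csf3r and Plac8, the most abundant of these markers, did not pass the threshold in either subset, with adjusted p values between 0.154 and 0.842. Erythroblast markers were tested for 6 and 5 of 8 genes and neutrophil precursor markers for 5 and 2 of 5. Of these, 0 passed in either subset, and 1, a precursor marker in Tim4+CD206+ KCs, was higher at an unadjusted p under 0.05. Hba-a1, a haemoglobin gene, was 14.40, 13.92 and 13.50 tumour-free and 15.80, 14.64 and 13.86 with tumour in Tim4+CD206+ KCs, and the groups overlapped, and it differed by 0.67 in Tim4+CD206hi KCs (adjusted p = 0.545). Hepatocyte markers fell for 6 and 5 of 7 genes, B or plasma cell markers for 3 and 2 of 6, and KC markers for 3 and 0 of 15. The most abundant hepatocyte marker, Trf, differed by -0.47 and -0.13 (adjusted p = 0.251 and 0.717), and Cd79b of B cells fell by 0.91 and 0.99 (adjusted p = 0.0209 and 0.0297). Of the KC markers, C1qb differed by -0.35 in Tim4+CD206+ and Clec4f by -0.58 in Tim4+CD206hi KCs, and neither passed. In each subset 14 of the 15 KC markers had a lower mean with tumour and 1 a higher one. Over all genes, 52.1% and 52.3% had a higher mean. The summed KC markers with tumour were 2347220, 2189340 and 2338538 in Tim4+CD206+ KCs. They were 1361304, 1218459 and 1277839 in Tim4+CD206hi KCs. In both subsets every tumour sum was below every tumour-free one. Endothelial markers fell for 0 and 1 of 7 and stellate cell markers for 0 and 2 of 7, and 0 T, natural killer or dendritic cell markers passed, with 3 and 5 of those lower at an unadjusted p under 0.05. Of their most abundant genes, Clec4g (-0.90, adjusted p = 0.024) and Dcn (-1.67, adjusted p = 0.00493) fell in Tim4+CD206hi KCs. In Tim4+CD206+ KCs Stab2 (-0.63), Col3a1 (-0.09), Nkg7 (-0.75), Siglech (0.27) and Prtn3, a neutrophil precursor gene (1.54), did not pass, nor did Nkg7 (-0.72), Clec9a (-0.38) and Prtn3 (0.88) in Tim4+CD206hi KCs. No listed marker was at 0 in the tumour tables, and the part of these cells in the values of the 40 genes was not tested.

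Deletion of Id3, a transcriptional regulator that keeps helix-loop-helix factors from binding DNA, left 0 of the 39 tested genes past the threshold in limma, against 6.44% of 12833 genes (3.08% higher and 3.37% lower). At an unadjusted p under 0.05, 2 were higher and 2 lower, against 11.9% and 11.7% of all genes. Intervals were narrower here than in the tumour comparisons, with a median SE of 0.11, and all 39 lay between -0.97 and 0.72. The largest difference in size was that of Ccnb2, cyclin B2, at -0.44 (interval -0.97 to 0.09).

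With 0 genes called, the values after Id3 deletion are given as a description, and the difference between S-phase and mitotic genes was not tested. The 6 MCM genes, singled out after their values were seen, had a higher mean in Clec4fCreId3f/f KCs, and the groups did not overlap for Mcm3, Mcm4, Mcm5 and Mcm7. Mcm5 was 8.35, 8.40 and 7.95 in Id3f/f and 8.58 and 8.66 in Clec4fCreId3f/f KCs (0.39 ± 0.14, adjusted p = 0.115). Id3f/f replicate 3 was the lowest sample for Mcm3, Mcm4 and Mcm5. It differed by -0.62, -0.48 and -0.42 from the mean of the other Id3f/f samples, and these 3 differences between genotypes were smaller without it. Mcm7 was 8.44, 8.14 and 8.37 against 8.72 and 8.62 (0.35 ± 0.11, adjusted p = 0.0891), and its exons share 385 bases with genes on the opposite strand. Pcna, the replication clamp, went the other way, at 11.38, 11.35 and 11.25 against 11.12 and 11.06 (-0.24 ± 0.09, adjusted p = 0.137). Across all genes 20.2% were separate in the upward and 21.7% in the downward direction, and the 5 and 6 of these 39 genes were below that. Of the 11 S-phase genes 9 had a higher mean, where 50.4% of all genes did, with a median of 0.13 that was 0.07 without Clec4fCreId3f/f replicate 1 and 0.27 without replicate 2.

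Mitotic genes had a lower mean in 17 of 21 cases, with a median of -0.08 that rested on Id3f/f replicate 3 and was 0.02 without it. The groups did not overlap for Birc5, Kif11, Ube2c and Cdc20. Ube2c was 7.26, 7.25 and 7.97 in Id3f/f and 7.10 and 7.06 in Clec4fCreId3f/f KCs (-0.42 ± 0.19, adjusted p = 0.222). Mki67 was 6.54, 6.58 and 6.98 against 6.65 and 6.81, a difference of 0.03 with an interval from -0.26 to 0.31. For Ube2c, as for Birc5 (6.95, 6.85 and 7.60 against 6.84 and 6.71) and Ccnb2 (7.19, 7.54 and 8.23 against 7.25 and 7.18), Id3f/f replicate 3 was the highest sample. That replicate was above the mean of the other 2 Id3f/f samples for 31 of the 39 genes. In the same sample the summed hepatocyte markers were 87229, against 65678 and 65058 in the other 2 Id3f/f samples, and their part was not tested.

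Without Id3f/f replicate 3, 4 of the 39 genes passed the threshold, 3 upward and 1 downward, while 6.78% of all genes rose and 7.64% fell. E2f1 (0.36), Mcm6 (0.41) and Mcm7 (0.38) rose, and Pcna (-0.28) fell. With all samples in limma, E2f1 differed by 0.24 (adjusted p = 0.301) and Mcm6 by 0.27 (adjusted p = 0.256). Mcm6 was 8.90, 9.03 and 9.37 in Id3f/f and 9.38 and 9.36 in Clec4fCreId3f/f KCs, so that the sample left out was the one that overlapped them. With all samples, Cdc6, Gins2, Rrm2, Uhrf1, Aurka, Bub1, Bub1b and Nusap1 differed by at most 0.03 in either direction. Cdk1, Ccna2, Ccnb1, Plk1, Cenpe, Cenpf, Kif20a, Kif23 and Tpx2 differed by -0.17 to -0.04, Top2a by 0.11, Aurkb by 0.15, Mcm2 by 0.12 and Rrm1 by 0.13. Ccne1 and Ccne2 differed by 0.05 and -0.06. Tyms was lower in both Clec4fCreId3f/f samples (-0.25, adjusted p = 0.24) and Cdt1 was higher in both (0.16, adjusted p = 0.29). Myc was 10.61, 10.59 and 10.41 against 10.41 and 10.50. Foxm1 was between 2.79 and 2.87 in all 5 samples, below the filter.

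On the pathway lists, single genes passed with Id3 deletion, at counts per list of 0 to 2, where 6.44% of all genes passed. The lists as such were not tested. Ccnd1, cyclin D1, fell by 0.43 ± 0.10 (adjusted p = 0.0349), from 10.55, 10.47 and 10.32 to 9.98 and 10.06, as 1 of 7 G1 cyclins and kinases. Rbl2, the RB family protein p130 of resting cells, rose by 0.52 ± 0.11 (adjusted p = 0.0264), from 8.34, 8.38 and 8.58 to 8.85 and 9.06, as 1 of 16 tested genes of its list. Both Clec4fCreId3f/f samples lay beyond all Id3f/f samples for these genes. Csf1r rose by 0.50 ± 0.08 (adjusted p = 0.0101) on the list of macrophage growth control. Of 41 further mitotic genes, Incenp, a scaffold of the chromosomal passenger complex, rose by 0.58 ± 0.13 (adjusted p = 0.031), and Pttg1, securin, fell by 0.55 ± 0.13 (adjusted p = 0.0354). Of 23 further replication genes, 6 CDK inhibitors and 11 p53 targets 0 passed, and at an unadjusted p under 0.05 the counts were 3 (1 higher and 2 lower), 0 and 4 (3 higher and 1 lower), where 11.9% of all genes were higher and 11.7% lower. None of these 5 calls held without either Clec4fCreId3f/f sample. Those of Incenp, Ccnd1 and Rbl2 also did not hold without Id3f/f replicate 1 or 2, nor that of Pttg1 without replicate 1, with adjusted p values between 0.0604 and 0.108.

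The 2 genotypes also differed in sex-linked genes. Xist, expressed from the inactive X chromosome, was 6.38, 6.33 and 6.36 in Id3f/f and 9.84 and 9.76 in Clec4fCreId3f/f KCs, and the Y-linked Ddx3y was 9.46, 9.43 and 9.43 against 7.0 and 7.01. Sex and genotype therefore cannot be told apart in this comparison. Of the markers, 2 of 5 tested erythroblast genes fell, and their summed level was 35717, 30560 and 14385 in Id3f/f and 8405 and 11426 in Clec4fCreId3f/f KCs. Hba-a1 fell by 1.44 (adjusted p = 0.0384). Of 6 tested monocyte markers 1 fell, Plac8, by 0.95 (adjusted p = 0.00151), at summed levels of 13581, 12163 and 14594 against 6951 and 7508. Cldn4, Ly6g and Vcan were at 0 in this table. None of the epithelial, neutrophil, T or B cell markers passed, and 2 B or plasma cell markers were lower at an unadjusted p under 0.05. Of 7 endothelial markers 1 rose, Pecam1 (0.58, adjusted p = 0.018), and 1 fell, Clec4g (-0.80, adjusted p = 0.0179), and of 7 hepatocyte markers 1 fell, Fabp1 (-0.54, adjusted p = 0.0432). Of 15 KC markers, Id3 among them, 3 rose and 7 fell. Clec4f, the gene that drives Cre, differed by -1.52 (adjusted p = 1.8e-06), the highest Clec4fCreId3f/f sample lying below every Id3f/f sample. C1qb, the most abundant, fell by 0.40 (adjusted p = 0.00644), and Adgre1, the gene of F4/80, rose by 0.79 (adjusted p = 0.00165). The most abundant genes of the other lists, Spint2, Csf3r, Prtn3, Nkg7, Cd79b, Clec9a, Trf and Dcn, differed by -0.32 to 0.14 and did not pass. The part of the RNA of these cells in the values of the 40 genes was not tested.

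For 9 genes the exons overlap another gene on the opposite strand, by 53 bases in Cdc20 and up to 2758 bases in Gins2, and the kit does not mark strand. These are Mcm7, Gins2, Ccna2, Plk1, Kif20a, Nusap1, Ube2c, Cdc20 and Ccne2, and reads in the shared bases cannot be assigned to 1 of the 2 genes.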

How the data were processed

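RNA-seq libraries of 17 samples had been amplified with SMART-Seq v4, which marks neither strand nor molecule, and sequenced. The authors' processing notes name STAR 2.7.10a, HTSeq, DESeq2 and mm10. The deposited values are log2 values that look like those of a regularized log transformation, although the tables are named as counts and TPM; they were normalized separately in 3 tables, differences were tested only within a table, and the depth is unknown. Genes were tested at a value of at least log2 of 10 in as many samples as the smaller group holds. limma 3.58.1 (R 4.3.3) was fitted to each table without a block, using its mean-variance trend option, and two-sided p values were adjusted by Benjamini-Hochberg over all genes tested, with a threshold of 0.05. The tests were checked on simulated data. Tables were made with Python 3.11.15. Positions are those of GENCODE M21 (GRCm38).

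The 40 genes and all lists were chosen with earlier results of these data known. All 40 genes were accounted for; of the pathway lists, genes with an adjusted p under 0.05 were named, at most 6 per comparison, and of each marker list the most abundant gene and those at 0. A result that this rule would name is not reported here. Other genes named for groups that did not overlap or for a sample that stood apart were chosen after their values were seen.

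Same-numbered samples deviated together in Tim4+CD206+ KCs (correlations 0.35, 0.56 and 0.15 of deviations from the group means), so the numbers were taken to pair them there; the labels name no shared source. They did not in Tim4+CD206hi KCs (-0.05, -0.13 and -0.05) or in the Id3 experiment (-0.07 and -0.10). Alternatives were no filter, a mean of at least log2 of 50, a replicate block, no trend, median centring, quantile normalization and leaving out each sample.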

Additional observations from a re-analysis of the deposited data

How the results depend on the processing

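The 1 called member in Tim4+CD206+ KCs, Mki67, kept its call with the replicate block, the stricter filter, no trend and median centring. Without a filter and with quantile normalization 0 members were called, and leaving out 1 sample gave 0 to 1 members and 231 to 1022 genes in place of 469. The replicate block, which pairs the samples there by number only, called 1026 genes and changed no call among the 40. In Tim4+CD206hi KCs leaving out 1 sample gave 0 to 13 members, 579 to 3634 genes in place of 1053, and medians of the S-phase genes from 0.04 to 0.36; the stricter filter called 600 genes, and median centring moved the median of the S-phase genes to 0.04. The replicate block called 909 genes and 0 members there; the numbers pair nothing in this table. In the Id3 experiment the filter left out called 477 genes in place of 827. The replicate block called 2089 genes (16.3%) and 3 members (Mcm6, Mcm7 and E2f1, at 0.41, 0.38 and 0.36), because it leaves Id3f/f replicate 3 without a partner and so out of the difference; the samples share only a number. Leaving out 1 sample gave 0 to 4 members, 17 to 1850 genes and medians of the S-phase genes from 0.07 to 0.27; without a Clec4fCreId3f/f sample, the lone one is assumed to vary like the Id3f/f samples. Where no value above shows it, the cause was not tested. Signs of members not called changed under median centring for 1, 5 and 3 genes, and under leaving out 1 sample for at most 9, 8 and 11 genes, in Tim4+CD206+, Tim4+CD206hi and Id3 comparisons. Beyond leaving out samples, pathway genes lost calls without a filter (Arhgap11a 0.0548, E2f2 0.0546, Incenp 0.0538, Pttg1 0.0637, Ccnd1 0.0586, as adjusted p), with median centring (Arhgap11a 0.0917, Csf1r in Tim4+CD206+ KCs 0.0914), with quantile normalization (Arhgap11a 0.0759, E2f2 0.0724), without the trend (Incenp 0.0583, Pttg1 0.0658) and with the block (E2f2 0.0794). The read depth is unknown, and the precision differed between tables, with a median SE of 0.28 over the 40 genes in each tumour comparison and 0.11 over the 39 tested in the Id3 experiment.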
